A study of Homo sapiens with 12 samples.

Results

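Genes whose symbol is LINC followed by digits are catalogued long intergenic noncoding RNAs, and the tables list 2124 of them. The 162 described here are those with a mean of at least 2 CPM (read count over the library's column sum, scaled as CPM) in at least 1 of the 4 groups of 3 libraries. They were thus chosen by their measured level, and levels are given below as a description. The deposited tables hold 60669 gene rows in the NKX2-2 experiment and 60624 in the CLEC16A experiment. Symbols were given in 1 table and were joined to the others by Ensembl identifier. Just inside the threshold stood LINC00870, whose highest group mean was 2.005 CPM, and just outside it LINC01409, at 1.987 CPM.

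The cells were derived from MEL1, an established human embryonic stem cell line, by way of expandable pancreatic progenitors that were then turned into islet-like cells, and they were taken on day 8 in a medium named R6. Progenitors had been grown on feeder cells with EGF, bFGF, the TGF-beta receptor inhibitor 616452 and the BET inhibitor I-BET151, and R6 contains T3, LDN-193189, Compound E, forskolin, 616452, zinc, heparin and vitamin C, in all groups. NKX2-2 KO libraries were set against NKX2-2 WT libraries, and CLEC16A KO libraries against CLEC16A WT libraries, with 3 libraries in each group. NKX2-2 encodes a homeobox transcription factor of islet endocrine cells, and CLEC16A encodes an endolysosomal E3 ubiquitin ligase that acts in mitophagy. The labels name no clone and no kind of edit, and nothing says that replicates came from separate cultures. P-values therefore reflect how far the libraries of a group spread, which may be technical only, and a knockout effect cannot be told apart from a difference between the lines compared. KO and WT below mean libraries so labelled.

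The transcripts of the targeted genes were still counted in the knockouts. NKX2-2 had 91.9, 68.03 and 68.3 CPM in NKX2-2 KO libraries, against 95.4, 96.6 and 93.4 CPM in NKX2-2 WT libraries (log2 fold change -0.32, SE 0.12, edgeR adjusted p = 0.061). CLEC16A had 35.4, 38.04 and 36.8 CPM in CLEC16A KO libraries, against 36.2, 30.1 and 30.8 CPM in CLEC16A WT libraries (log2 fold change 0.18, SE 0.09, edgeR adjusted p = 0.0949). The transcript level alone thus does not check these labels. NKX2-2 was also lower in CLEC16A KO, at 65.7, 65.8 and 58.9 CPM, against 113, 131 and 119 CPM in CLEC16A WT (log2 fold change -0.93, SE 0.07, edgeR adjusted p = 3.53e-10), a larger fold change than in NKX2-2 KO. These and all CPM values below are scaled to TMM library sizes within each experiment.

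A LINC number is a catalogue entry and carries no statement of function. As a class such transcripts have no recognised long open reading frame, are often low in level and restricted to few cell types, and many start close to a developmental regulator or an enhancer. A few have described roles. LINC00261, also called DEANR1, lies beside the pioneer factor gene FOXA2 and acts in human endoderm differentiation. LINC01578, now CHASERR, lies upstream of the chromatin remodeller gene CHD2 and lowers CHD2 output in cis. LINC00461 and LINC00472 are host transcripts of microRNAs, and LINC00632 spans CDR1, the locus of the circular RNA CDR1as. In pancreas development, FOXA2 and the islet regulators act before and during endocrine differentiation, which makes the transcripts beside such genes of interest in these cells.

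The sequences of the microRNAs inside the host transcripts are shown because both hosts were called in both experiments with opposite signs. The microRNAs themselves were not measured. Mature sequences are from RefSeq (GRCh38.p14), written 5' to 3' with the seed, bases 2 to 8, in capitals.
hsa-miR-9-5p: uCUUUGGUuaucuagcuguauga
hsa-miR-9-3p: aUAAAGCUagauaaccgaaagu
hsa-miR-30a-5p: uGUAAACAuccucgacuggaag
hsa-miR-30c-5p: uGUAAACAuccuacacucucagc
The hairpin MIR9-2 lies in LINC00461, and MIR30A and MIR30C2 lie in LINC00472. A further host, LINC01138 with MIR5087, was called higher in CLEC16A KO and is not shown. The 5p arms of miR-30a and miR-30c share the seed GUAAACA, while the miR-9 arms have the seeds CUUUGGU and UAAAGCU.

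Promoter windows are shown for the LINC gene with the highest level, LINC00261, and for LINC01522 and LINC00485, which were among the largest falls in NKX2-2 KO. Each window holds 250 bases before and 50 after the RefSeq start (GRCh38.p14), here on the minus strand and written 5' to 3', with matches to TNAAGTG (the core bound by NKX2 factors) or TGTTTAC (the core bound by FOXA factors) on either strand in capitals.
LINC00261, chr20:22578593-22578892: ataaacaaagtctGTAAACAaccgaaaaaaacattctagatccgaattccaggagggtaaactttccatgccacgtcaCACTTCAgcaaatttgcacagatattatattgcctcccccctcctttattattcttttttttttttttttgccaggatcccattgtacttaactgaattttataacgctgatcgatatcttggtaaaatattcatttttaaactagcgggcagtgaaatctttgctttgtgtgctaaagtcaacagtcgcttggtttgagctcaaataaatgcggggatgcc
LINC01522, chr20:47990068-47990367: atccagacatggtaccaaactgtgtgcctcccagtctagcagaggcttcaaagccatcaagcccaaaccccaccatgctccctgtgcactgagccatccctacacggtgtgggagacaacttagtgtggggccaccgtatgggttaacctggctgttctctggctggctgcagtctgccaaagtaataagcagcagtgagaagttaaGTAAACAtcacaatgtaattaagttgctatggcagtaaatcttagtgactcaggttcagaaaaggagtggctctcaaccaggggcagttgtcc
LINC00485, chr12:102824350-102824649: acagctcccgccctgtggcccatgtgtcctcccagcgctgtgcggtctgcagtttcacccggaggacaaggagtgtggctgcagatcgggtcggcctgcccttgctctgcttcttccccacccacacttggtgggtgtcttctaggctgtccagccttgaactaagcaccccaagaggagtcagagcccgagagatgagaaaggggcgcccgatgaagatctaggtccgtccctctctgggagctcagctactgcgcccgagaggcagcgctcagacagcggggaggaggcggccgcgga
Windows were found for 37 of the 65 LINC genes named by rule. TGTTTAC was present in 5 of the 37 (13.5%), against 3.41% of the 27167 windows in the table, and TNAAGTG in 3 of the 37 (8.11%), against 10.3%. The windows of LINC00261 and LINC01522 hold TGTTTAC, that of LINC00261 also TNAAGTG, and that of LINC00485 neither. LINC02714, whose fall in NKX2-2 KO was larger than that of LINC01522, has a window that also holds neither and is not shown. A match describes letters and shows no binding. Of the other motifs searched, CAGATG was in 4 windows (10.8%, against 14.8% of all windows) and CAGCTG in 2 (5.41%, against 17.7%). TGACGCAA and GTTGCCAT were in 1 each (2.7%, against 0.556% and 1.31%). CAAAGTCCA and TGACGTCA were in 0, against 0.357% and 1.96% of all windows. No motif was set apart by a test.

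Counts per library summed to between 16158286 and 20654720 in the NKX2-2 experiment and between 31364272 and 33763795 in the CLEC16A experiment. Low counts are therefore less precise in the NKX2-2 experiment. All replicate pairs differed beyond sampling noise (chi-square per degree of freedom 3.85 to 25.4). Each library was counted as a replicate in the tests, although such a spread does not show that the libraries came from separate cultures. Marker lists moved with both knockouts. Of 18 islet endocrine markers, 13 were lower and 3 higher in NKX2-2 KO, with summed levels of 2127 to 2365 CPM in KO and 5517 to 5813 CPM in WT, and 18 of 18 were lower in CLEC16A KO, with 15772 to 18087 CPM in KO and 29939 to 32855 CPM in WT. Of 12 mesenchyme markers, 11 were higher in NKX2-2 KO (6202 to 6885 CPM, against 2507 to 2755 CPM in WT), while 7 of 11 tested were lower in CLEC16A KO (207 to 242 CPM, against 311 to 354 CPM in WT). Neuronal markers were higher in NKX2-2 KO in 6 of 10 (959 to 1067 CPM, against 698 to 757 CPM in WT) and lower in CLEC16A KO in 9 of 10 (307 to 348 CPM, against 681 to 754 CPM in WT). Liver markers were higher in CLEC16A KO in 10 of 12 (17119 to 18764 CPM, against 6896 to 7196 CPM in WT) and gut markers in 10 of 10 (5617 to 6405 CPM, against 1250 to 1353 CPM in WT). In NKX2-2 KO liver markers were higher in 4 of 12 and lower in 2, and gut markers higher in 2 of 9 and lower in 5. INS, GCG and CHGA, which mark islet endocrine cells, were detected in every group. CHGA made up most of the islet sums in the CLEC16A experiment, averaging 14395 CPM in KO and 25233 CPM in WT. In the NKX2-2 experiment it averaged 163 CPM in KO and 480 CPM in WT. Of the pluripotent markers, ESRG had 0 counts in every group and NANOG in every group except CLEC16A KO. Others were present, such as L1TD1, which averaged 104 CPM in NKX2-2 KO, 95.1 CPM in NKX2-2 WT, 175 CPM in CLEC16A KO and 52.3 CPM in CLEC16A WT. Of 5 pluripotent markers tested, 4 were higher and 1 (LIN28A) lower in CLEC16A KO. In NKX2-2 KO 1 of 5 (LIN28A) was higher and 0 were lower. In these bulk libraries fewer cells of a type and less RNA per cell cannot be told apart, and the part that other cell types have in the values of the LINC genes was not tested.

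Detection was broad but uneven. The threshold of 2 CPM was met in all 4 groups by 69 of the 162 LINC genes and in exactly 1 group by 43. It was met by 102 LINC genes in NKX2-2 KO and 97 in NKX2-2 WT, and by 125 in CLEC16A KO and 113 in CLEC16A WT. All 162 were placed in GENCODE 29 (GRCh38), 20 of them on chromosome 1. Another annotated gene overlapped 89 of them, a protein-coding gene 27, and 15 now carry another symbol. Whether counting used strand is not given in the sources used here, and the reads of an overlapped LINC gene may include those of its partner. GENCODE 29 classes some of them as protein coding, such as LINC02693 and LINC00672. Others are classed as transcribed pseudogenes, such as LINC00643, LINC00680, LINC00888 and LINC02210. The reads of some of these could also be shared with near copies.

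LINC00261 (chr20:22547671-22578642, minus strand) was the LINC gene with the highest level per length in every group. It reached 52.2 TPM (transcript abundance scaled by gene length and library) in NKX2-2 KO and 88.2 TPM in NKX2-2 WT, and 235 TPM in CLEC16A KO and 307 TPM in CLEC16A WT. The TPM columns of the NKX2-2 experiment cover 41.5% to 47.3% of a complete TPM total, so TPM levels are not comparable between the experiments. LINC00261 had 363, 317 and 327 CPM in NKX2-2 KO libraries, against 514, 466 and 465 CPM in NKX2-2 WT libraries. The 3 KO libraries lay below all 3 WT libraries (log2 fold change -0.52, SE 0.10, edgeR adjusted p = 0.00188). LINC00261 had 427, 430.2 and 397 CPM in CLEC16A KO libraries, against 677, 623 and 696 CPM in CLEC16A WT libraries. Again the groups did not overlap (log2 fold change -0.67, SE 0.06, edgeR adjusted p = 1.09e-08), although in limma on log2(TPM + 0.1) the adjusted p was 0.052, with a log2 fold change of -0.40. FOXA2, which lies 2356 bases from LINC00261, moved the same way, with a log2 fold change of -1.05 (SE 0.12, edgeR adjusted p = 2.26e-05) in NKX2-2 KO over WT and -0.63 (SE 0.06, edgeR adjusted p = 2.73e-08) in CLEC16A KO over WT.

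The other LINC genes of highest mean TPM over the groups were LINC01578, LINC02381, LINC00667, LINC00888, LINC00643, LINC01128, LINC00205, LINC02210 and LINC00963. Of these 9, 2 were called higher and 1 lower in NKX2-2 KO, where 16.6% of all genes tested were called higher and 16.8% lower. In CLEC16A KO 1 was called higher and 7 lower, against 23.7% and 21.3% of all genes tested. LINC01128 had 58.8, 58.3 and 60.2 CPM in CLEC16A KO libraries, against 95.2, 89.8 and 95.05 CPM in CLEC16A WT libraries. LINC01128, on chromosome 1 near SAMD11, fell there (log2 fold change -0.66, SE 0.07, edgeR adjusted p = 2.33e-08). LINC00643 had 29.3, 29.5 and 28.4 CPM in CLEC16A KO libraries, against 45.9, 47.2 and 46.5 CPM in CLEC16A WT libraries. LINC00643, which lies beside the synaptotagmin gene SYT16, fell by a like amount (log2 fold change -0.68, SE 0.08, edgeR adjusted p = 1.65e-07). LINC02210 averaged 21.9 ± 0.68 CPM in CLEC16A KO and 31.9 ± 0.89 CPM in CLEC16A WT (SD, n = 3 each) in the CLEC16A experiment, but only 0.13 ± 0.11 CPM in NKX2-2 KO and 0.21 ± 0.09 CPM in NKX2-2 WT (SD, n = 3 each) in the NKX2-2 experiment. It overlaps the read-through gene LINC02210-CRHR1. Its count to TPM ratio was at least 4 times lower in the NKX2-2 experiment than in the CLEC16A experiment, as were those of LINC00106, LINC00235 and LINC00242 among the 161 LINC genes with a ratio. The counts of these 4 are therefore uncertain in the NKX2-2 tables, where none of them was tested. LINC00106 had 0 counts there, with mean TPM of 0.76 in NKX2-2 KO and 0.30 in NKX2-2 WT, and it was listed at 0 TPM in the CLEC16A experiment, with 3.91 CPM in KO and 3.92 CPM in WT. LINC01578 was called higher in NKX2-2 KO with groups that overlapped (log2 fold change 0.40, SE 0.14, edgeR adjusted p = 0.0452), a call that was lost without KO replicate 2 or 3 or without WT replicate 1 or 2 (adjusted p 0.099 to 0.203), and CHD2 was not called beside it (log2 fold change -0.02, SE 0.11, edgeR adjusted p = 0.887).

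**Figure D1:**
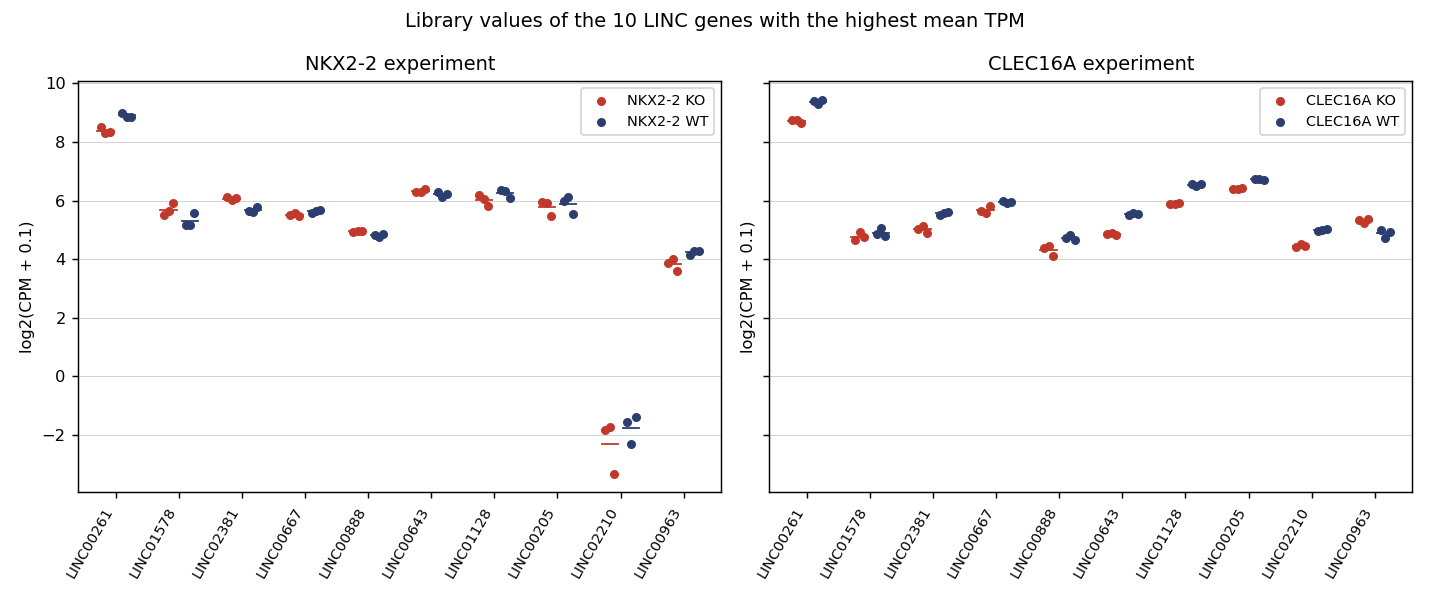
Each point is the level of 1 library as log2(CPM + 0.1) for the 10 LINC genes with the highest mean TPM, with KO in red to the left of WT in blue and lines at the mean of 3 libraries. LINC00261 lies above all others in both experiments, at 317 to 363 CPM in NKX2-2 KO and 465 to 514 CPM in NKX2-2 WT, and LINC02210 lies under 0.3 CPM in the NKX2-2 experiment.

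In NKX2-2 KO, LINC00485, LINC02714 and LINC01522 fell to under 1 CPM in every library, while LINC01293, the microRNA hosts LINC00461 and LINC00472, and LINC00632 were higher by 1.48 to 2.96 on the log2 scale than in WT. Of the 154 LINC genes that passed the count filter (8 had too few counts in this experiment, 4 of them those with uncertain counts), 33 rose, 18 fell and 103 were not called (edgeR quasi-likelihood, adjusted p under 0.05). The share called was 33.1%, against 33.4% of the 17436 genes tested and 35.1% of those with a mean of at least 2 CPM in a group, so as a share it stood near the background. In the higher direction it was 21.4%, against 16.6% of all genes and 16.6% at that level, and in the lower direction 11.7%, against 16.8% and 18.5%. Since level in 1 group was enough to be chosen, genes high in only 1 group enter more easily, and no support is drawn from these counts. Over LINC genes with a mean of at least 2 CPM across both groups, 24 of 98 rose and 11 fell. The median log2 fold change was 0.06, also with LINC00485 at its bound, against 0.03 over all genes. At 2-fold or more, 13 of the 154 rose and 10 fell, against 7.28% and 5.53% of all genes. The 3 KO libraries lay wholly above the 3 WT libraries for 42 of the 154 and wholly below for 27, against 23.1% and 22.5% of all genes. Without WT replicate 1, 21 rose.

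The largest falls in NKX2-2 KO were in 3 genes that were close to absent there. LINC00485 (chr12:102809280-102824399, minus strand) had 0 counts in all 3 KO libraries and 183 counts in the 3 WT libraries together. LINC00485 had 0 CPM in each of the 3 NKX2-2 KO libraries, against 3.46, 2.83 and 3.10 CPM in NKX2-2 WT libraries. Set against a floor of 3 counts per library, it was at least 18.65-fold lower in KO (edgeR adjusted p = 2.37e-06), a bound that covers counting error only. It was present in both groups of the CLEC16A experiment, at 2.13, 1.52 and 1.28 CPM in KO and 1.35, 1.36 and 2.34 CPM in WT, and was not called there (edgeR adjusted p = 0.953).

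LINC02714 (chr11:134735596-134763810, plus strand) showed the next largest fall. LINC02714 had 0.54, 0.35 and 0.29 CPM in NKX2-2 KO libraries, against 22.4, 21.9 and 23.9 CPM in NKX2-2 WT libraries. Every KO library was below 1 CPM and every WT library above 21 CPM (log2 fold change -5.84, SE 0.21, edgeR adjusted p = 2.25e-09). The nearest coding gene is B3GAT1, a glucuronyltransferase gene that makes the HNK-1 carbohydrate, at 323354 bases, and it fell as well, to 15.3 CPM in KO, against 79.1 CPM in WT (log2 fold change -2.37, SE 0.13, edgeR adjusted p = 4.67e-08). In a window of 500 kb on each side, chosen after the values were seen, 3 of 6 other tested genes were lower and 1 was higher.

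LINC01522 (chr20:47980488-47988744, minus strand) was the third. LINC01522 had 0.90, 0.55 and 0.52 CPM in NKX2-2 KO libraries, against 9.03, 9.76 and 7.56 CPM in NKX2-2 WT libraries. The groups were far apart (log2 fold change -3.74, SE 0.25, edgeR adjusted p = 2.02e-07). Its nearest coding gene is the heparan sulfate sulfatase gene SULF2, at 193861 bases, with a log2 fold change of -0.53 (SE 0.10, edgeR adjusted p = 0.00123). Within 500 kb, 1 of 3 other tested genes was lower and 0 were higher.

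The other falls in NKX2-2 KO were smaller. LINC02532 had 6.14, 5.55 and 5.94 CPM in NKX2-2 KO libraries, against 13.7, 13.9 and 12.4 CPM in NKX2-2 WT libraries. LINC02532, on chromosome 6, thus stood lower in every KO library than in any WT library (log2 fold change -1.18, SE 0.14, edgeR adjusted p = 3.06e-05). LINC00957 had 4.82, 6.20 and 3.87 CPM in NKX2-2 KO libraries, against 10.4, 11.8 and 10.5 CPM in NKX2-2 WT libraries. LINC00957, on chromosome 7 beside DBNL, fell too (log2 fold change -1.13, SE 0.18, edgeR adjusted p = 0.000372), while DBNL was not called (edgeR adjusted p = 0.305). LINC01560, LINC01811, LINC00870, LINC01315 and LINC00680 completed the list, with log2 fold changes between -1.12 and -0.53. LINC00870 was called with an edgeR adjusted p of 0.0476, a call that was lost in each of the 6 fits that left out 1 library (adjusted p 0.0566 to 0.144). The call of LINC00680 had the same adjusted p and was lost without KO replicate 2, WT replicate 1 or WT replicate 3 (adjusted p 0.0655 to 0.197). The call of LINC00680 in CLEC16A KO was lost without KO replicate 3 or WT replicate 3 (adjusted p 0.0781 and 0.0531).

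Among the rises in NKX2-2 KO, LINC01293 (chr2:74940258-74942670, plus strand) had the largest fold change. LINC01293 had 1.99, 2.00 and 2.13 CPM in NKX2-2 KO libraries, against 0.34, 0.35 and 0.06 CPM in NKX2-2 WT libraries. The KO libraries were close to each other and lay above all WT libraries (log2 fold change 2.96, SE 0.44, edgeR adjusted p = 0.000164). Its neighbour on the same strand, LINC01291, rose as well, averaging 5.58 ± 0.87 CPM in NKX2-2 KO and 2.60 ± 0.33 CPM in NKX2-2 WT (SD, n = 3 each) (log2 fold change 1.10, SE 0.21, edgeR adjusted p = 0.00108), and so did POLE4, a histone-fold subunit of DNA polymerase epsilon, at 15973 bases from LINC01293 (log2 fold change 0.84, SE 0.14, edgeR adjusted p = 0.000359).

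LINC00461 (chr5:88507546-88691041, minus strand), the host of MIR9-2, was the next. LINC00461 had 7.16, 7.10 and 7.27 CPM in NKX2-2 KO libraries, against 0.67, 1.47 and 0.96 CPM in NKX2-2 WT libraries. The counts set the groups far apart (log2 fold change 2.79, SE 0.25, edgeR adjusted p = 2.73e-06). MEF2C, a MADS box transcription factor gene at 26076 bases, rose too (log2 fold change 1.29, SE 0.14, edgeR adjusted p = 1.68e-05). The rise of LINC00461 was not called in the deposited TPM, where the log2 fold change in limma was 0.22 on log2(TPM + 1) (adjusted p = 0.618). Its interval overlaps MEF2C-AS2, and the cause of the difference between counts and TPM was not tested.

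LINC00472 had 12.7, 13.8 and 12.3 CPM in NKX2-2 KO libraries, against 5.57, 3.94 and 4.35 CPM in NKX2-2 WT libraries. LINC00472, the host of MIR30A and MIR30C2, thus rose (log2 fold change 1.48, SE 0.17, edgeR adjusted p = 1.7e-05), and OGFRL1 at 35285 bases rose beside it (log2 fold change 1.24, SE 0.11, edgeR adjusted p = 2.78e-06). LINC00632 had 2.95, 4.00 and 2.08 CPM in NKX2-2 KO libraries, against 0.82, 0.76 and 0.34 CPM in NKX2-2 WT libraries. LINC00632, the transcript over CDR1 on chromosome X, rose by a larger fold from a lower level (log2 fold change 2.21, SE 0.36, edgeR adjusted p = 0.000409). LINC01579 had 7.83, 9.15 and 12.98 CPM in NKX2-2 KO libraries, against 2.50, 1.82 and 1.92 CPM in NKX2-2 WT libraries. LINC01579, on chromosome 15, rose with KO libraries spread more widely than WT libraries (log2 fold change 2.26, SE 0.23, edgeR adjusted p = 7.84e-06).

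LINC01014 lies inside KCNMB2, the gene of an auxiliary subunit of the calcium-activated potassium channel. LINC01014 had 5.96, 5.25 and 5.37 CPM in NKX2-2 KO libraries, against 2.21, 2.02 and 2.60 CPM in NKX2-2 WT libraries. It rose (log2 fold change 1.28, SE 0.20, edgeR adjusted p = 0.000255), and KCNMB2 rose as well (log2 fold change 1.67, SE 0.21, edgeR adjusted p = 5.12e-05), but both lie on the same strand, and the reads of the pair may not be separated by the counting. LINC00348, LINC02511, LINC00240 and LINC00342 made up the remaining rises of the named list, with log2 fold changes of 1.67, 1.38, 1.25 and 1.23. LINC02511 averaged 3.40 ± 0.21 CPM in NKX2-2 KO and 1.30 ± 0.11 CPM in NKX2-2 WT (SD, n = 3 each) and had 0 counts in all 6 libraries of the CLEC16A experiment.

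**Figure D2:**
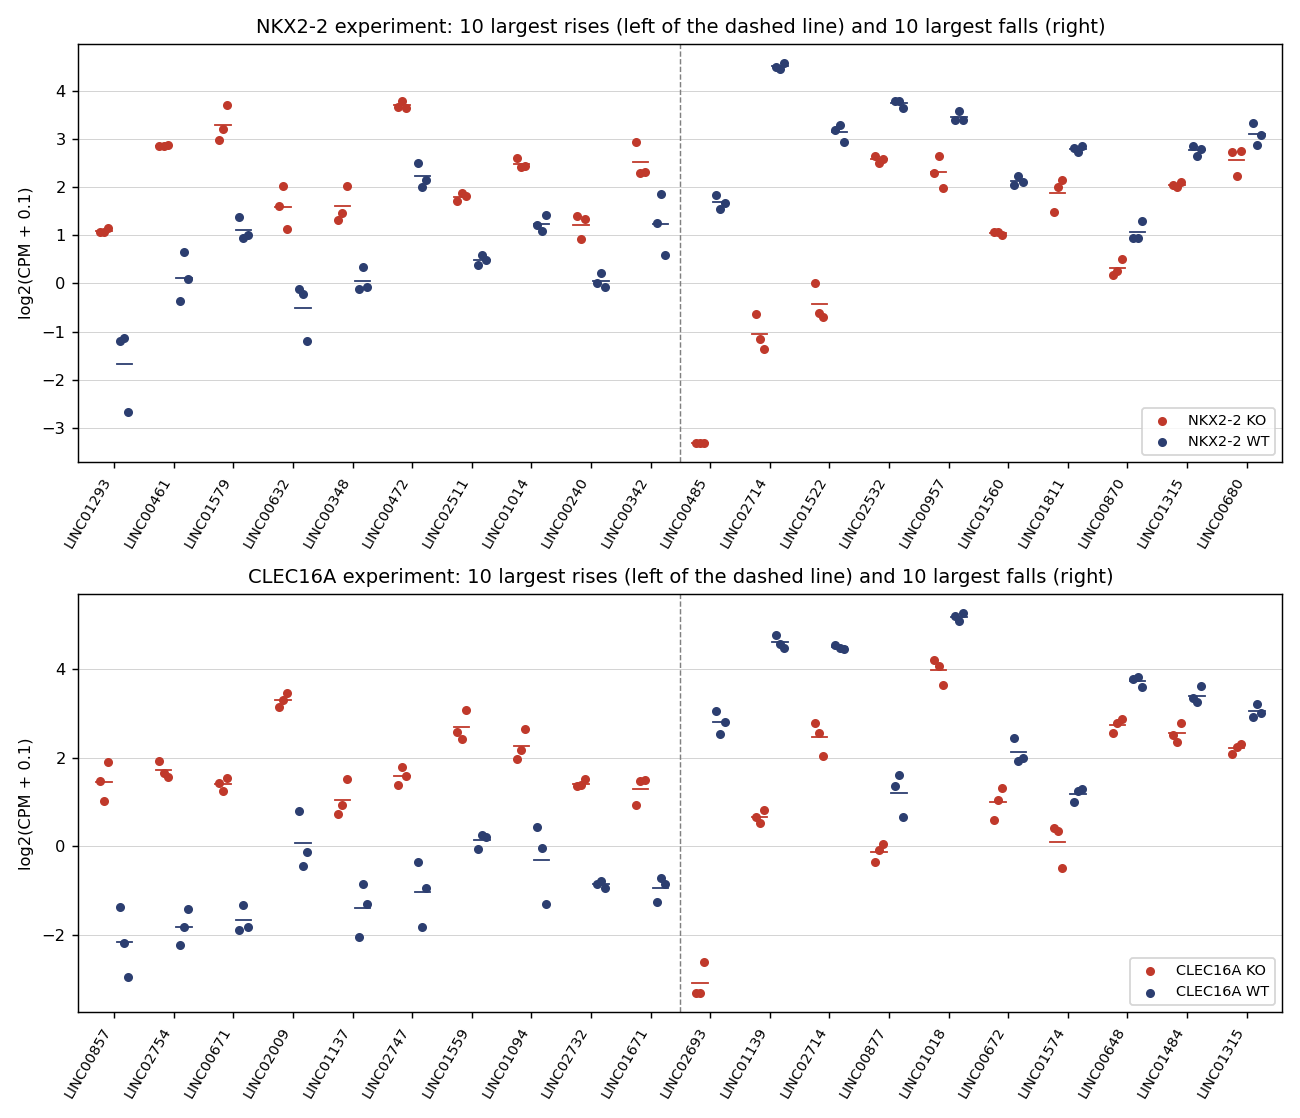
Points are libraries as log2(CPM + 0.1), KO in red to the left of WT in blue, with lines at the mean of 3, for the 10 largest rises and 10 largest falls of each experiment whose groups do not overlap. The lowest points are the libraries at 0 counts, LINC00485 in NKX2-2 KO and LINC02693 in CLEC16A KO replicates 1 and 2.

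In CLEC16A KO, LINC02693 and LINC01139 fell to under 2 CPM in every library, LINC00261 and 7 of the 9 next by TPM were lower, and LINC00857, LINC02754, LINC00671 and LINC02009 were higher by 3.24 to 4.18 on the log2 scale than in WT. Of 160 tested (2 were too low), 43 rose, 40 fell and 77 were not called. The share called was 51.9%, against 45% of the 19958 genes tested and 52.9% of the tested genes with a mean of at least 2 CPM in a group. In the higher direction it was 26.9%, against 23.7% of all genes and 27.7% at that level, and in the lower direction 25%, against 21.3% and 25.3%. These shares stood near the background at that level. Of the 122 with a mean of at least 2 CPM across both groups, 31 rose and 35 fell. The median log2 fold change was -0.02, against -0.01 over all genes. At 2-fold or more, 26 of the 160 rose and 9 fell, against 8.74% and 5.16% of all genes. The 3 KO libraries lay wholly above the WT libraries for 45 of the 160 and wholly below for 44, against 27.4% and 26.4% of all genes. Within this experiment 26 LINC genes met the threshold of 2 CPM in KO only and 14 in WT only. Genes high in only 1 group were thus let in by the choice itself, and no support is drawn from these counts. With upper-quartile scaling 40 rose and 43 fell, and in limma on log2(TPM + 1), which lowered the median of all genes to -0.11, 31 rose and 35 fell. Summed over the 162 LINC genes, the level was 1553, 1561 and 1567 CPM in CLEC16A KO libraries, against 1978, 1919 and 1979 CPM in CLEC16A WT libraries. In the NKX2-2 experiment the sum was 1446, 1360 and 1379 CPM in KO libraries, against 1523, 1477 and 1469 CPM in WT libraries. LINC00261 was the largest term of each sum.

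The largest fall in CLEC16A KO was in LINC02693 (chr17:21428381-21574517, minus strand), which had 2 counts in the 3 KO libraries together and 701 in the 3 WT libraries. LINC02693 had 0, 0 and 0.06 CPM in CLEC16A KO libraries, against 8.17, 5.67 and 6.92 CPM in CLEC16A WT libraries. The WT level was 327 times the KO level by counts (95% counting interval 90.3 to 2709), and the edgeR adjusted p was 1.13e-12. The gene was not called in the NKX2-2 experiment, with 5.84, 4.95 and 5.89 CPM in KO and 4.81, 5.00 and 4.40 CPM in WT (edgeR adjusted p = 0.344). KCNJ12, an inward rectifier potassium channel gene at 8511 bases, was not called in CLEC16A KO (log2 fold change -0.49, SE 0.39, edgeR adjusted p = 0.337). Of 8 other tested genes within 500 kb, 1 was higher and 0 were lower.

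LINC01139 (chr1:238476542-238486054, minus strand) fell next. LINC01139 had 1.49, 1.34 and 1.67 CPM in CLEC16A KO libraries, against 27.2, 23.5 and 22.3 CPM in CLEC16A WT libraries. All KO libraries were under 2 CPM and all WT libraries over 22 CPM (log2 fold change -4.02, SE 0.15, edgeR adjusted p = 1.82e-15). It was not called in NKX2-2 KO (log2 fold change -0.39, SE 0.16, edgeR adjusted p = 0.0739), and the nearest coding gene, ZP4, lies 585620 bases away.

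LINC02714 had 6.79, 5.78 and 4.01 CPM in CLEC16A KO libraries, against 23.1, 22.1 and 21.9 CPM in CLEC16A WT libraries. LINC02714 was thus a fall in this experiment too, smaller than in NKX2-2 KO (log2 fold change -2.02, SE 0.15, edgeR adjusted p = 1.68e-10), and 5 of 7 other tested genes within 500 kb were lower and 0 higher, B3GAT1 among the lower (log2 fold change -0.84, SE 0.09, edgeR adjusted p = 5.98e-08). The difference between the 2 effects on LINC02714 was itself past the threshold (interaction log2 -3.82, SE 0.31, edgeR adjusted p = 1.6e-09). LINC01018, on chromosome 5 beside NSUN2, had a high level. LINC01018 had 18.4, 16.6 and 12.4 CPM in CLEC16A KO libraries, against 36.7, 33.7 and 38.3 CPM in CLEC16A WT libraries. It fell (log2 fold change -1.20, SE 0.12, edgeR adjusted p = 2.13e-08) and was not called in NKX2-2 KO (log2 fold change -0.07, SE 0.12, edgeR adjusted p = 0.675).

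LINC00877, LINC00672, LINC01574, LINC00648, LINC01484 and LINC01315 were the other falls of the named list, with log2 fold changes of -1.49, -1.16, -1.11, -1.005, -0.85 and -0.85. LINC01574 lies 66688 bases from UNC5A, a netrin receptor gene, which fell as well (log2 fold change -1.32, SE 0.14, edgeR adjusted p = 6.02e-08). LINC00648 lies 89349 bases from MDGA2, an adhesion gene that was not called (edgeR adjusted p = 0.229).

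The largest rise in CLEC16A KO was in LINC00857 (chr10:80207710-80219657, plus strand), beside the annexin gene ANXA11. LINC00857 had 2.68, 1.93 and 3.63 CPM in CLEC16A KO libraries, against 0.29, 0.12 and 0.03 CPM in CLEC16A WT libraries. It was higher in every KO library (log2 fold change 4.18, SE 0.47, edgeR adjusted p = 1.34e-07), and ANXA11 at 1902 bases rose by less (log2 fold change 1.17, SE 0.07, edgeR adjusted p = 2.8e-12). LINC02754 had 3.72, 3.07 and 2.86 CPM in CLEC16A KO libraries, against 0.11, 0.18 and 0.27 CPM in CLEC16A WT libraries. LINC02754, on chromosome 11, rose too, to over 2 CPM in every KO library, against under 0.3 CPM in every WT library (log2 fold change 4.06, SE 0.36, edgeR adjusted p = 3.72e-09).

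LINC00671 (chr17:42874670-42898704, minus strand) lies 2095 bases from G6PC1, which encodes the catalytic subunit of glucose-6-phosphatase, a liver enzyme of glucose release. LINC00671 had 2.59, 2.27 and 2.82 CPM in CLEC16A KO libraries, against 0.17, 0.30 and 0.18 CPM in CLEC16A WT libraries. It rose (log2 fold change 3.53, SE 0.37, edgeR adjusted p = 5.02e-08), and G6PC1 rose with it (log2 fold change 4.14, SE 0.12, edgeR adjusted p = 3.24e-13). In NKX2-2 KO it was too low to be tested, and G6PC1 fell (log2 fold change -1.29, SE 0.14, edgeR adjusted p = 1.18e-05).

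LINC02009 had 8.69, 9.72 and 10.9 CPM in CLEC16A KO libraries, against 1.63, 0.63 and 0.82 CPM in CLEC16A WT libraries. LINC02009, which lies 7001 bases from the chemerin-binding receptor gene CCRL2, rose with it (log2 fold change 3.24, SE 0.25, edgeR adjusted p = 9.13e-10), CCRL2 having a log2 fold change of 2.65 (SE 0.12, edgeR adjusted p = 4.82e-14). LINC02009 was not called in NKX2-2 KO (log2 fold change 0.07, SE 0.20, edgeR adjusted p = 0.817). LINC01137 had 1.55, 1.80 and 2.76 CPM in CLEC16A KO libraries, against 0.14, 0.45 and 0.30 CPM in CLEC16A WT libraries. LINC01137, now ZC3H12A-DT, starts 169 bases from ZC3H12A, the gene of the RNase regnase-1, and both rose (log2 fold change 2.76, SE 0.42, edgeR adjusted p = 1.11e-05 for LINC01137). For ZC3H12A the log2 fold change was 1.69 (SE 0.12, edgeR adjusted p = 4.31e-11).

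LINC02747, LINC01559, LINC01094, LINC02732 and LINC01671 completed the rises, with log2 fold changes of 2.75, 2.69, 2.55, 2.49 and 2.48. LINC01094 lies 35456 bases from the annexin gene ANXA3, which rose too (log2 fold change 1.54, SE 0.08, edgeR adjusted p = 4.27e-13). LINC01559 had 5.85, 5.28 and 8.38 CPM in CLEC16A KO libraries, against 0.86, 1.09 and 1.06 CPM in CLEC16A WT libraries. LINC01559 averaged more than the other 4 in KO libraries and was too low to be tested in NKX2-2 KO.

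Across the experiments, 152 LINC genes were tested in both, and 29 were called in both. These are 59.2% of the 49 called in NKX2-2 KO and 37.7% of the 77 called in CLEC16A KO, against 63.4% and 41.8% over the 16975 genes tested in both, so the overlap was not above the background. Of the 29, 7 rose in both, 8 fell in both and 14 moved in opposite directions, 10 of them higher in NKX2-2 KO and lower in CLEC16A KO. Over all 3499 genes called in both, 14.7% rose in both, 27.7% fell in both and 57.7% moved in opposite directions (57.9% of those with a mean of at least 2 CPM in a group). In the test of the difference between the effects, 34 of 162 LINC genes had a higher effect in the NKX2-2 experiment and 36 a lower one. Over the 20494 genes tested the shares were 17.8% and 20.4%, 38.2% in all. The 162 include LINC genes that were not tested in 1 of the experiments, among them the 4 with uncertain counts in the NKX2-2 experiment. LINC00671, too low to be tested in NKX2-2 KO, was counted among those with a lower effect (interaction log2 -4.26, edgeR adjusted p = 0.000109). No support is drawn from these counts. Among the 29, that test was passed by 17, which include the 14 of opposite sign.

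**Figure D3:**
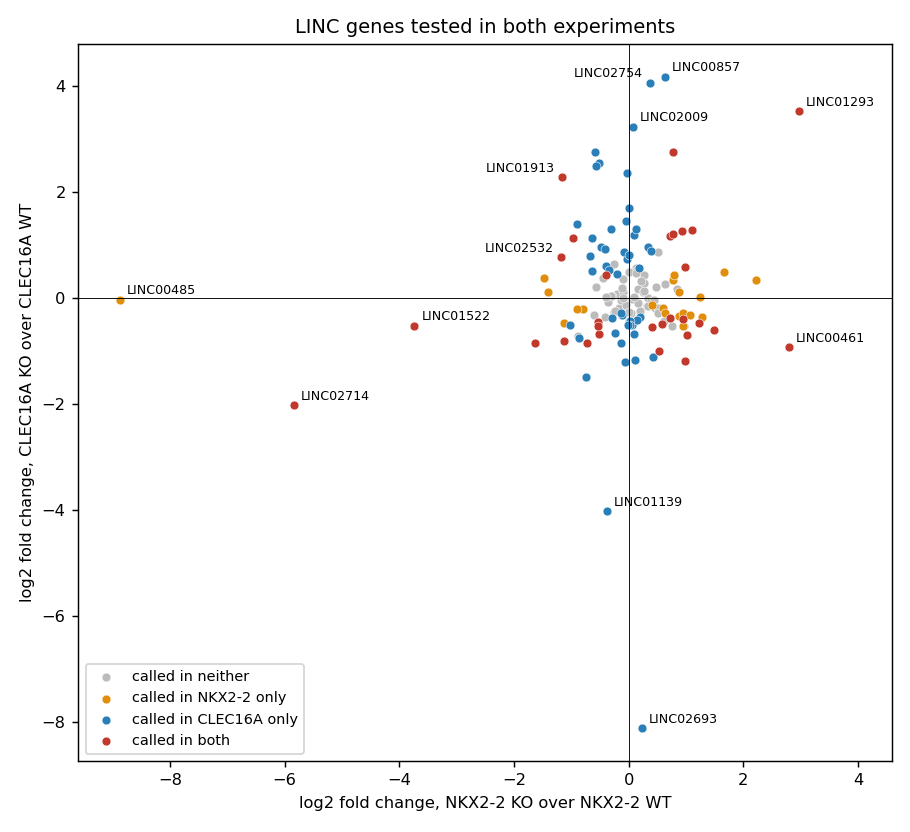
Each point is 1 of 151 LINC genes tested in both experiments, with the log2 fold change of NKX2-2 KO over WT on the horizontal axis and of CLEC16A KO over WT on the vertical axis, coloured by where it was called (1 more is not drawn). LINC02714 lies low in both, while LINC01522 lies low for NKX2-2 KO and only a little below 0 for CLEC16A KO. LINC00485 and LINC02693 lie far out in 1 experiment each (their fitted values rest on 0 and 2 KO counts and have no fixed size), and LINC00857, LINC02754 and LINC02009 lie near 0 for NKX2-2 KO.

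LINC genes lower in both knockouts were LINC00261, LINC02714, LINC01522, LINC00957, LINC01315, LINC00511, LINC00680 and LINC01351. LINC01351, now BRINP3-DT, starts 687 bases from BRINP3, a gene expressed in the nervous system. LINC01351 had 0.60, 0.60 and 0.58 CPM in NKX2-2 KO libraries, against 2.64, 1.31 and 1.58 CPM in NKX2-2 WT libraries. It fell (log2 fold change -1.63, SE 0.37, edgeR adjusted p = 0.00404), and BRINP3 fell with it (log2 fold change -1.42, SE 0.13, edgeR adjusted p = 2.54e-06). In CLEC16A KO the call of LINC01351 was weak (log2 fold change -0.85, SE 0.34, edgeR adjusted p = 0.0472), with groups that overlapped, and was lost without KO replicate 1, KO replicate 2 or any WT library (adjusted p 0.0509 to 0.197), while BRINP3 fell there too (log2 fold change -1.33, SE 0.09, edgeR adjusted p = 2.27e-11). LINC01522 had 9.70, 8.51 and 9.73 CPM in CLEC16A KO libraries, against 15.3, 10.8 and 13.999 CPM in CLEC16A WT libraries. LINC01522 was thus lower in CLEC16A KO by far less than in NKX2-2 KO (log2 fold change -0.52, SE 0.14, edgeR adjusted p = 0.00414), and the 2 effects differed (interaction log2 -3.22, edgeR adjusted p = 8.57e-09). LINC00511, a transcript of chromosome 17, averaged 11.4 ± 0.83 CPM in NKX2-2 KO and 16.4 ± 0.23 CPM in NKX2-2 WT (SD, n = 3 each) and 15.1 ± 1.34 CPM in CLEC16A KO and 20.6 ± 0.73 CPM in CLEC16A WT (SD, n = 3 each).

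LINC genes higher in both were LINC01293, LINC01291, LINC00479, LINC00491, LINC01137, LINC02535 and LINC02672. LINC01293 had 0.91, 0.81 and 2.54 CPM in CLEC16A KO libraries, against 0.06, 0.21 and 0.09 CPM in CLEC16A WT libraries. LINC01293 was higher there too (log2 fold change 3.53, SE 0.60, edgeR adjusted p = 3.89e-05), and its effects were not shown to differ (interaction log2 -0.53, edgeR adjusted p = 0.66). LINC02535 averaged 10.5 ± 1.73 CPM in NKX2-2 KO and 6.17 ± 0.70 CPM in NKX2-2 WT (SD, n = 3 each) and 8.23 ± 0.74 CPM in CLEC16A KO and 3.57 ± 0.68 CPM in CLEC16A WT (SD, n = 3 each), with log2 fold changes of 0.77 and 1.20. In NKX2-2 KO the calls of LINC01137 and LINC02672 rested on edgeR adjusted p values of 0.0451 and 0.0294. That of LINC01137 was lost in 5 of 6 fits that left out 1 library, without any 1 KO library or without WT replicate 1 or 2 (adjusted p 0.0549 to 0.164), and that of LINC02672 without KO replicate 2 or 3 or WT replicate 1 or 3 (adjusted p 0.0781 to 0.116). The CLEC16A call of LINC00479 was lost without KO replicate 2, WT replicate 1 or WT replicate 3 (adjusted p 0.0555 to 0.0797).

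Both microRNA hosts were among the opposite pairs. LINC00461 had 0.78, 1.21 and 0.58 CPM in CLEC16A KO libraries, against 1.58, 1.51 and 1.82 CPM in CLEC16A WT libraries. LINC00461 thus went the other way in CLEC16A KO (log2 fold change -0.93, SE 0.34, edgeR adjusted p = 0.0313), a call that was lost without KO replicate 1 or 3 or WT replicate 1 or 3 (adjusted p 0.0581 to 0.114), while MEF2C was higher there (log2 fold change 0.60, SE 0.22, edgeR adjusted p = 0.0327). LINC00472 had 3.81, 3.88 and 5.26 CPM in CLEC16A KO libraries, against 6.57, 5.97 and 7.11 CPM in CLEC16A WT libraries. LINC00472 was lower as well (log2 fold change -0.60, SE 0.18, edgeR adjusted p = 0.00773), though not in limma on the deposited TPM (log2 fold change -0.23, adjusted p = 0.503 on log2(TPM + 1)).

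LINC01370 had 18.7, 23.96 and 23.9 CPM in NKX2-2 KO libraries, against 11.3, 10.9 and 10.7 CPM in NKX2-2 WT libraries. LINC01370, on chromosome 20, rose in NKX2-2 KO (log2 fold change 1.01, SE 0.13, edgeR adjusted p = 6.91e-05). LINC01370 had 7.50, 7.45 and 7.58 CPM in CLEC16A KO libraries, against 12.96, 11.3 and 12.1 CPM in CLEC16A WT libraries. It fell in CLEC16A KO (log2 fold change -0.69, SE 0.13, edgeR adjusted p = 0.000155).

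LINC02532 had 17.8, 19.5 and 22.2 CPM in CLEC16A KO libraries, against 10.5, 12.2 and 12.2 CPM in CLEC16A WT libraries. LINC02532, lower in NKX2-2 KO, was thus higher in CLEC16A KO (log2 fold change 0.77, SE 0.12, edgeR adjusted p = 1.14e-05). LINC01913 had 5.98, 6.30 and 7.93 CPM in CLEC16A KO libraries, against 1.52, 0.72 and 1.91 CPM in CLEC16A WT libraries. LINC01913, beside the kinase gene PKDCC, rose there (log2 fold change 2.28, SE 0.26, edgeR adjusted p = 2.17e-07), and its fall in NKX2-2 KO had an edgeR adjusted p of 0.0495 and was lost without WT replicate 1 or 3 or any 1 KO library (adjusted p 0.0582 to 0.222). LINC01226 overlaps TINAGL1, a basement membrane glycoprotein gene, and moved with it, down in NKX2-2 KO (log2 fold change -0.97 for LINC01226 and -1.03 for TINAGL1) and up in CLEC16A KO (1.13 and 2.197). Both lie on the plus strand, and their reads may not be separated by the counting. Neither call of LINC01226 was made in limma on log2(TPM + 1) (adjusted p = 0.103 and 0.0701), and the NKX2-2 call was lost without KO replicate 1 or 3 or any WT library (adjusted p 0.0587 to 0.163).

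LINC02381, LINC00963, LINC00342, LINC00641, LINC00648, LINC01089, LINC01829 and LINC01963 made up the rest of the 14 opposite pairs. LINC02381, which overlaps SMUG1, averaged 67.2 ± 2.05 CPM in NKX2-2 KO and 50.96 ± 3.41 CPM in NKX2-2 WT (SD, n = 3 each) and 32.4 ± 2.72 CPM in CLEC16A KO and 47.5 ± 1.83 CPM in CLEC16A WT (SD, n = 3 each), and its NKX2-2 call was lost without WT replicate 1 or WT replicate 2 (adjusted p 0.0649 and 0.0777). LINC00963 averaged 14.3 ± 2.08 CPM in NKX2-2 KO and 18.9 ± 1.03 CPM in NKX2-2 WT (SD, n = 3 each) and 39.8 ± 2.00 CPM in CLEC16A KO and 29.5 ± 2.67 CPM in CLEC16A WT (SD, n = 3 each), and its NKX2-2 call was lost without KO replicate 3 or any WT library (adjusted p 0.0518 to 0.132). In limma on log2(TPM + 1) LINC00963 was called in neither experiment (adjusted p = 0.793 and 0.176). LINC00342 averaged 5.74 ± 1.54 CPM in NKX2-2 KO and 2.42 ± 1.07 CPM in NKX2-2 WT (SD, n = 3 each) and 9.76 ± 1.20 CPM in CLEC16A KO and 13.5 ± 0.84 CPM in CLEC16A WT (SD, n = 3 each). Among the others, leaving out 1 library ended the NKX2-2 calls of LINC00648 (without WT replicate 2), LINC01829 (without KO replicate 3, WT replicate 1 or WT replicate 2) and LINC01963 (without KO replicate 1 or any WT library), and the CLEC16A calls of LINC01089 (without KO replicate 1 or 3 or WT replicate 1 or 2) and LINC01829 (without KO replicate 2 or WT replicate 2).

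**Figure D4:**
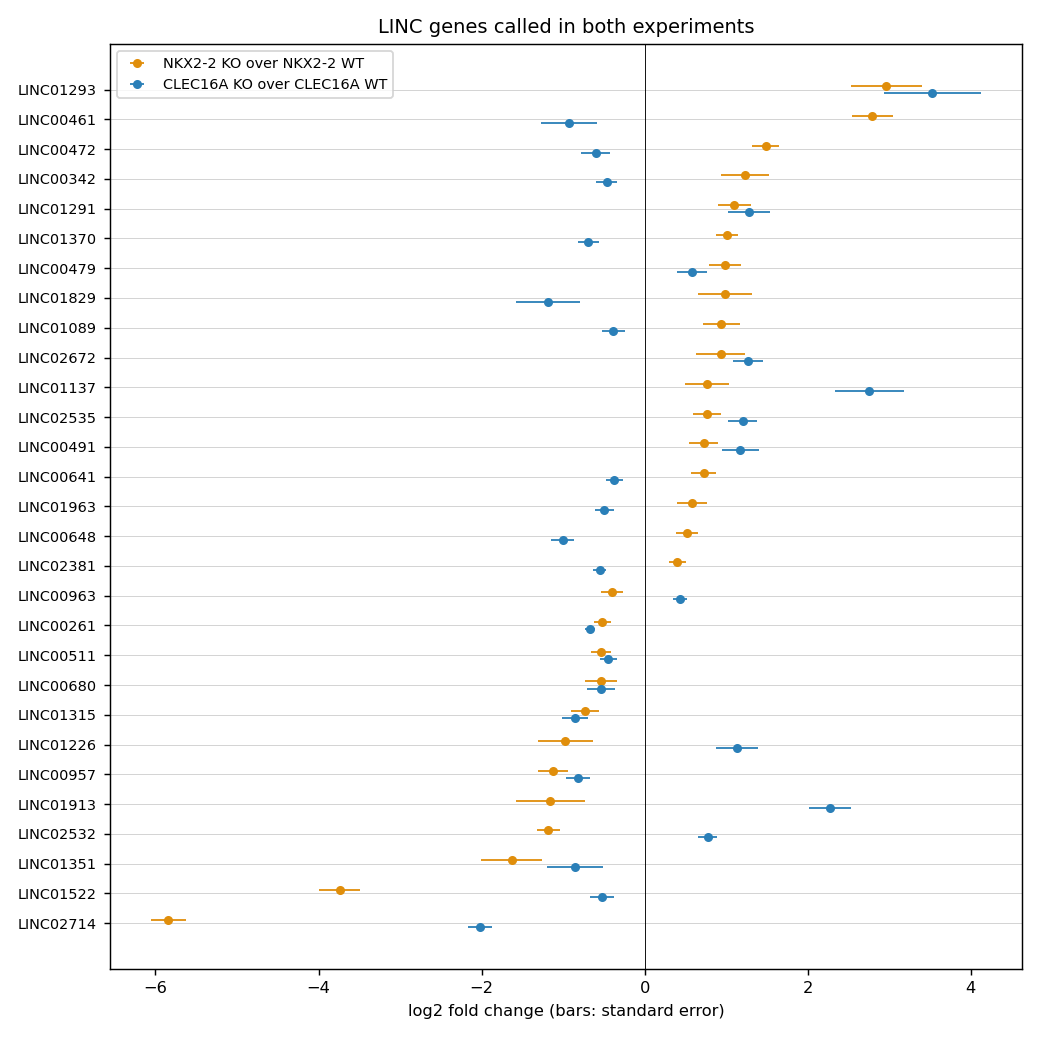
Log2 fold changes of the 29 LINC genes called in both experiments, with bars for the standard error, in orange for NKX2-2 KO over WT and in blue for CLEC16A KO over WT. LINC02714 at the bottom is at -5.84 and -2.02, LINC01293 at the top at 2.96 and 3.53, and 14 genes have points on both sides of 0.

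The nearest coding neighbours of called LINC genes were compared with them. A protein-coding gene lay within 100 kb of 125 of the 162. Of 34 called LINC genes with a tested neighbour in the NKX2-2 experiment, 14 were called the same way as the neighbour (10 higher, 4 lower), 2 the opposite way, and 18 had a neighbour that was not called. In the CLEC16A experiment 23 of 50 were called the same way (15 higher, 8 lower), 7 the opposite way, and 20 had a neighbour not called. Where LINC genes that overlap another gene were left out, 3 of 15 pairs in the NKX2-2 experiment were called the same way and 2 the opposite way, and 14 of 28 in the CLEC16A experiment the same way and 5 the opposite way. Over all genes tested, the share called in either direction was 33.4% in the NKX2-2 experiment and 45% in the CLEC16A experiment. For a neighbour called the same way, the background is the share called higher or the share called lower. These shares were 16.6% and 16.8% in the NKX2-2 experiment and 23.7% and 21.3% in the CLEC16A experiment. Pairs that share a neighbour, such as LINC01291 and LINC01293 with POLE4, are not independent. Pairs called opposite ways included LINC00479 with RIPK4 in NKX2-2 KO (log2 fold changes 0.99 and -0.97). Another was LINC00511 with SLC39A11 in CLEC16A KO (-0.44 and 0.82). Whether a pair shares reads was not tested.

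**Figure D5:**
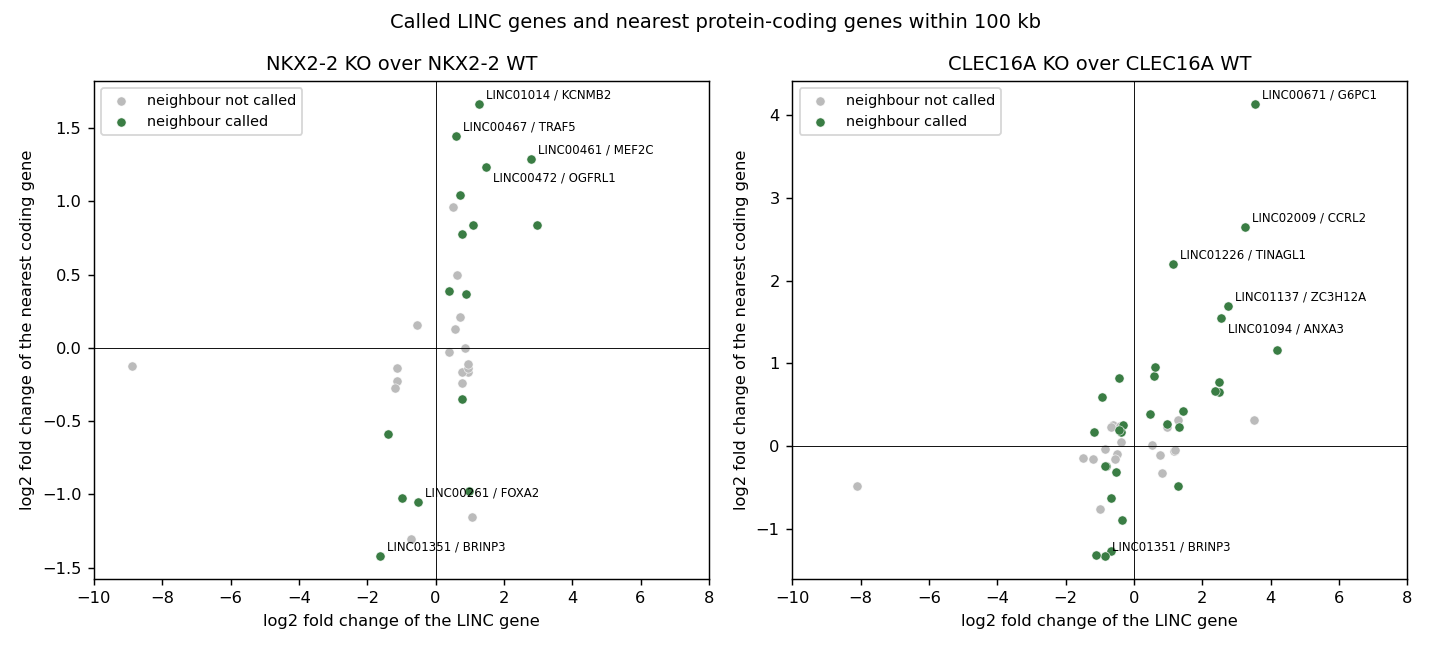
Log2 fold change of each called LINC gene (horizontal axis) and of the nearest protein-coding gene within 100 kb (vertical axis), for 34 pairs in the NKX2-2 experiment and 49 in the CLEC16A experiment, green where the neighbour was called (1 more CLEC16A pair is not drawn). LINC00671 with G6PC1 and LINC02009 with CCRL2 lie farthest up in CLEC16A KO, while LINC02693, at the far left of the CLEC16A panel, has a neighbour that was not called.

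Of the 24 LINC genes listed for a known role or location, 13 met the threshold. LINC00467 rose in NKX2-2 KO (log2 fold change 0.59, SE 0.20, edgeR adjusted p = 0.0329), a call lost without KO replicate 2 or 3 or WT replicate 1 or 2 (adjusted p 0.0838 to 0.146). LINC00662 had 18.8, 16.8 and 18.4 CPM in CLEC16A KO libraries, against 24.8, 27.2 and 24.7 CPM in CLEC16A WT libraries. LINC00662 fell in CLEC16A KO (log2 fold change -0.51, SE 0.10, edgeR adjusted p = 0.00016) and was not called in NKX2-2 KO (edgeR adjusted p = 0.749). LINC00205, annotated as a bidirectional promoter transcript beside POFUT2, and LINC00667 fell in CLEC16A KO by less (log2 fold changes -0.33 and -0.28), the fall of LINC00667 not being called in limma on log2(TPM + 1) (adjusted p = 0.229). POFUT2, at 155 bases from LINC00205, was higher in CLEC16A KO (log2 fold change 0.25, SE 0.07, edgeR adjusted p = 0.00668). LINC00324 was called in neither experiment (edgeR adjusted p = 0.727 and 0.0946).

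Long noncoding RNAs that carry other names were compared from a list of 63, of which 62 are in the tables. In NKX2-2 KO 16 of 46 tested rose and 3 fell, against 16.6% and 16.8% of all genes. The rise with the lowest adjusted p was in CRNDE, which averaged 23.1 ± 1.3 CPM in KO and 7.44 ± 0.61 CPM in WT (SD, n = 3 each, log2 fold change 1.63, SE 0.13, edgeR adjusted p = 8.05e-07). By fold, WT1-AS and HAND2-AS1 rose by more, from under 0.4 CPM in WT (log2 fold changes 2.90 and 2.41, edgeR adjusted p = 0.00405 and 0.00131). HOTAIRM1, a transcript of the HOXA cluster, and MIR99AHG, the host of miR-99a, rose as well (log2 fold changes 1.61 and 0.93, edgeR adjusted p = 5.66e-05 and 0.000552). In CLEC16A KO 11 of 48 tested rose and 10 fell, against 23.7% and 21.3% of all genes, so the list stood near the background. NEAT1, the scaffold RNA of paraspeckles, had the lowest adjusted p among the rises and averaged 351 ± 18.3 CPM in KO and 167 ± 18.8 CPM in WT (SD, n = 3 each, log2 fold change 1.07, SE 0.07, edgeR adjusted p = 5.83e-11). ADAMTS9-AS2 had the largest fold among them (log2 fold change 1.46, edgeR adjusted p = 0.00137). MIR22HG and SNHG1 rose there too (log2 fold changes 1.32 and 0.85, edgeR adjusted p = 8.35e-11 and 4.46e-09). MIR22HG had 0 CPM in both groups of the NKX2-2 experiment, against averages of 38.9 CPM in CLEC16A KO and 15.6 CPM in CLEC16A WT, and the reason was not tested. Among the falls in CLEC16A KO, TUNAR had the lowest adjusted p (log2 fold change -1.27, edgeR adjusted p = 3.71e-08). CRNDE was also lower there (log2 fold change -0.88, edgeR adjusted p = 1.71e-05), opposite to its rise in NKX2-2 KO.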

How the data were processed

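RNA-seq was done on 12 libraries in 4 groups of 3, and the sample titles gave groups and replicate numbers. The submitters' processing notes name the build hg38 and the tools fastp (0.22.0), HISAT2 (2.2.1) and StringTie (2.1.7). The authors deposited raw read counts per Ensembl gene and TPM values scaled by length and library, as 1 table of each for each experiment. What program counted the reads, with which annotation and whether by strand, is not given in the sources used here. Y copies of pseudoautosomal genes (45 rows) were left out, and 0 columns had no sample.

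Counts were tested within each experiment in R (4.3.3) by the quasi-likelihood F test of edgeR (4.0.16, robust, with TMM and filterByExpr). P-values were adjusted by Benjamini-Hochberg over all genes tested, and 0.05 was the threshold. The difference between both effects was tested as an interaction in a fit of all 12 libraries. SE was taken as the size of the log2 fold change divided by the root of F. Printed CPM uses TMM library sizes, with factors of 0.938 to 1.059, while membership used plain column sums. The fit was tested on simulated data. Alternatives used DESeq2 (1.42.0), limma (3.58.1) on log2(TPM + 1) or log2(TPM + 0.1), other scalings and filters, and fits without each library.

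LINC genes were placed by GENCODE 29, and neighbours by RefSeq (GRCh38.p14), both on GRCh38. Named in the text, by rule, were the 10 largest rises and falls of each experiment (called, a mean of 2 CPM or more in the higher group, groups apart), the 10 of highest mean TPM, those called in both experiments, and a list of known ones, 65 in all. The LINC genes and lists were chosen with earlier results of these data known. Intervals and floors cover counting error only.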

Additional observations from a re-analysis of the deposited data

Results flagged for a closer look

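In 17 of the 29 LINC genes called in both experiments the effects differed between NKX2-2 KO over WT and CLEC16A KO over WT by the interaction test (edgeR adjusted p under 0.05). Values below are the log2 effect in the NKX2-2 experiment minus that in the CLEC16A experiment. The lower effect was in the NKX2-2 experiment for LINC02714 (-3.82), LINC01913 (-3.43), LINC01522 (-3.22), LINC01226 (-2.09), LINC01137 (-1.97), LINC02532 (-1.95) and LINC00963 (-0.82). The higher effect was in the NKX2-2 experiment for LINC00461 (3.73), LINC01829 (2.18), LINC00472 (2.09), LINC01370 (1.71), LINC00342 (1.71), LINC00648 (1.54), LINC01089 (1.33), LINC00641 (1.10), LINC01963 (1.08) and LINC02381 (0.96). In 14 of the 17 the effects had opposite signs. LINC02714 and LINC01522 fell in both knockouts, by more in NKX2-2 KO, and LINC01137 rose in both, by more in CLEC16A KO. Markers of islet endocrine cells fell in both experiments, while those of mesenchyme and neurons were higher in NKX2-2 KO and lower in CLEC16A KO. Their part in these differences was not tested.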

How the results depend on the processing

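No log2 fold change of a named LINC gene changed sign under the alternatives run in an experiment in which it was called, while some that were not called did, such as LINC01018 in NKX2-2 KO (-0.16 to 0.01 without 1 library). Of the values of named genes under these alternatives, 860 for NKX2-2 and 959 for CLEC16A stayed on their side of the threshold, 104 and 43 were no longer called, and 2 and 2 became called. Without filtering low TPM, limma on log2(TPM + 1) called 28 LINC genes in NKX2-2 KO (16 higher) and 58 in CLEC16A KO (28 higher). With membership at 5 CPM there were 76 LINC genes, of which 33 were called in NKX2-2 KO (21 higher) and 51 in CLEC16A KO (18 higher), and at 1 CPM there were 262. With LINC genes that overlap another gene left out, 3 and 14 neighbours were called the same way and 2 and 5 the opposite way. Leaving out 1 library gave 34 to 49 calls in NKX2-2 KO (21 to 31 higher, 13 to 18 lower), 71 to 76 in CLEC16A KO (37 to 41 higher, 34 to 36 lower) and 61 to 71 differing effects, and ended 19 calls of named genes in at least 1 fit. DESeq2 called 38 in NKX2-2 KO, 76 in CLEC16A KO and 68 differing effects. In limma on log2(TPM + 1), 12 calls of named genes were lost, and 40% of all called genes in CLEC16A KO were higher, against 52.7% in edgeR, with the median of all genes at -0.11. The cause of these changes was not tested. Replicate numbers were not taken as pairs in the main fits. Same-numbered KO and WT libraries correlated in their deviations by 0.109, 0.025 and 0.321 in the NKX2-2 experiment and by 0.011, 0.011 and -0.03 in the CLEC16A experiment. Not every library correlated best with its own number. In the NKX2-2 experiment replicate 3 stood apart in both groups. There KO replicate 3 correlated with WT replicates 1 and 2 by -0.185 and -0.191, and WT replicate 3 with KO replicates 1 and 2 by -0.243 and -0.107. What the replicate 3 libraries share is not given by the labels and was not tested. With the replicate number as a block, 63 LINC genes were called in NKX2-2 KO (38 higher, 25 lower), 81 in CLEC16A KO (43 higher, 38 lower) and 75 differing effects. The NKX2-2 libraries had fewer counts than the CLEC16A libraries, and depth was not varied.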

Other observations

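Of the LINC genes outside the naming rule that were called higher in CLEC16A KO, 2 were picked after their values were seen. LINC00543 lies 5548 bases from CDX2, the intestinal homeobox gene, and averaged 9.51 CPM in CLEC16A KO and 6.26 CPM in CLEC16A WT (log2 fold change 0.60, SE 0.15, edgeR adjusted p = 0.00239), with CDX2 higher too (log2 fold change 0.96). LINC00494 lies on chromosome 20 within 500 kb of LINC01522 and averaged 11.6 CPM in KO and 4.42 CPM in WT (log2 fold change 1.40, SE 0.16, edgeR adjusted p = 2.35e-07), whereas LINC01522 was lower there (log2 fold change -0.52).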
